A study of Mus musculus with 21 samples.

Results

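Translation initiation and elongation factors are the proteins that bring the ribosome to an mRNA, start it at the right codon and move it along the message. Their transcripts were followed in mouse bone-marrow-derived macrophages (BMDMs) that met the bacterial product lipopolysaccharide (LPS) with or without a pretreatment that touches succinate metabolism. Members were taken by name: symbols that begin with Eif or Eef and a digit, leaving out the Eif2ak kinases and pseudogenes named with -ps, and with at least 10 counts in at least 2 of the 21 libraries. This gave 50 of the 34573 genes in the count table, from 64 names that matched before the count minimum. Of the 50, 47 passed the filter on low counts that was used for testing, and Eef2k, Eif2b4 and Eif2b5 did not. The name rule also took in a few proteins with other jobs. Eif2c2 and Eif2c3 are older symbols of the Argonaute genes Ago2 and Ago3, which act in RNA silencing, Eif4a3 is a helicase of the exon junction complex, and Eef1e1 is a scaffold of the multi-tRNA-synthetase complex.

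All cells came from the marrow of C57bl/6 mice aged 12 weeks and were grown for 6 days in L929 medium, which supplies the growth factor M-CSF. No genetic change is named in the labels. Pretreatment, where given, was succinate or dimethyl malonate (DMM) for 3 h; DMM is an ester that enters cells and gives malonate, an inhibitor of succinate dehydrogenase. LPS, which activates Toll-like receptor 4, was then added for 4 h or 48 h or left out, and doses are not given in the labels. Tests used 20 libraries in 9 groups: 3 untreated, 4 with succinate alone, 4 with DMM alone, 2 with LPS 4 h, 1 with succinate then LPS 4 h, 2 with DMM then LPS 4 h, 1 with LPS 48 h, 1 with succinate then LPS 48 h and 2 with DMM then LPS 48 h. Libraries are named here by group and by the number in their column of the count table. The unstimulated libraries of both time sets were pooled, because their columns do not state the set. The labels do not say whether libraries came from separate animals or cultures, so the p-values here describe only how these samples vary, and that variation may be technical.

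Library totals were 662186 to 1546867 counts. The column labelled LPS 48 h number 1 was kept apart because it looks unstimulated: Saa3, an acute-phase gene induced by LPS, took 0.00428% of its counts against 7.55% in LPS 48 h library 2. Across the other libraries Saa3 took 0.0031% to 0.0114% of counts without LPS and 3.95% to 9.18% with it. The cytokine genes Il1b and Tnf, both LPS targets, were at most 11.8 and 6.12 CPM without LPS and at least 531 and 98.0 CPM with it. Of the 210 pairs of libraries, the pair closest in its counts was that column and DMM library 2 (chi-square per degree of freedom 1.19, against 2.76 to 21.7 for pairs within a group). By this measure untreated libraries 1 and 3 (4.955) were closer to each other than to 4 (10.313 and 12.41). Succinate 1 and 3 (6.558) and 2 and 4 (2.765) were closer than the other succinate pairs (10.992 to 21.654). DMM 2 and 4 were close (4.187), but DMM 3 was nearer to 4 (7.391) than to 1 (11.761). Ranges and overlaps of the untreated and succinate groups therefore include a difference between odd-numbered and even-numbered libraries. Its cause was not tested. Macrophage markers summed to 54195 to 91737 CPM (counts scaled to an equal effective library size) without LPS and 78481 to 173840 CPM with it, with all 9 detected. The 4 erythroid markers were at 0, and B cell, T cell, mast cell, dendritic cell and endothelial lists reached at most 12.7 CPM. In bulk RNA a smaller number of cells of a type and less RNA per cell cannot be told apart.

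As background, initiation starts with eIF2, which carries the initiator tRNA to the small ribosomal subunit together with eIF1, eIF1A, eIF3 and eIF5. The eIF4F complex (cap-binding eIF4E, scaffold eIF4G and helicase eIF4A) recruits the mRNA, and 4E-binding proteins block eIF4E until the kinase mTOR phosphorylates them. During elongation eEF1A delivers aminoacyl-tRNA, the eEF1B subunits recharge eEF1A with GTP, and eEF2 moves the ribosome by a codon. Many mRNAs of elongation factors and ribosomal proteins begin with a terminal oligopyrimidine (TOP) tract that links their translation and stability to mTOR, and LPS-stimulated macrophages are known to adjust translation through mTOR and through eIF2 phosphorylation.

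Promoter stretches of 8 members are shown before the values, for the sequence features that members called lower and members not called have in common. RefSeq promoter windows (250 bases before to 50 bases after each start, build GRCm38.p6) were matched for 40 of the 50 members. The E-box CACGTG, a palindrome that reads the same on both strands and is bound by factors such as Myc, was present in 11 of 40 members (27.5%), and in 8.09% of the 27025 genes with a window. A TOP-like start (C at the annotated start and pyrimidines at the next 4 bases, sense strand only) was present in 2 of 40 members (5%) and in 3.01% of all genes. Only the annotated start base was read, so a tract that begins some bases away counts as absent. A member outside this count may therefore still have a TOP tract. The first 5 stretches below belong to genes that were lower after DMM and LPS at 4 h. The other 6 genes with an E-box were not called lower there (Eif1b, Eif3a, Eif4e, Eif4g1, Eif4h and the untested Eef2k), and 2 of them, Eif4e and Eif4h, are shown. Eef1a1 and Eef1b2, which had the largest decreases among members in that comparison, were not among the 11 members found with CACGTG. Capitals mark the E-box.
Eef2, chr10:81176568-81176613, plus strand: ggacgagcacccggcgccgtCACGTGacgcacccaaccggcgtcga
Eif3f, chr7:108934327-108934372, plus strand: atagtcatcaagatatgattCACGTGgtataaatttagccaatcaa
Eif3k, chr7:28981907-28981952, minus strand: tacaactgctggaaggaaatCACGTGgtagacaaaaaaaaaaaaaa
Eif4a1, chr11:69672587-69672632, minus strand: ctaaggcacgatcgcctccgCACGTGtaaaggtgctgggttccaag
Eif5a, chr11:69921435-69921480, minus strand: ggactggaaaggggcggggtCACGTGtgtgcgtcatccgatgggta
Eif4e, chr3:138527184-138527229, plus strand: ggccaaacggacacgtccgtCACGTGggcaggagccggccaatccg
Eif4h, chr5:134639480-134639525, minus strand: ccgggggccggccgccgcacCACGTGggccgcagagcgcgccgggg

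The E-box ends 37 bases before the start in Eef2, 62 in Eif3f, 38 in Eif3k and 58 in this stretch of Eif4e. In Eif4a1 it lies 183 bases before the start. These letters are a description of the windows and do not show binding or set called genes apart from the rest. The 2 members with a TOP-like start, Eif3f and the never-called Eif2s3x, are given from 30 bases before the start to 15 bases from it, with the pyrimidine run of 11 bases in capitals.
Eif3f, chr7:108934385-108934429, plus strand: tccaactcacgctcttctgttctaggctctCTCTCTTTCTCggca
Eif2s3x, chrX:94212637-94212681, minus strand: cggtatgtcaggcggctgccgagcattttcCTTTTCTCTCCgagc

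In untreated cells the elongation factor genes Eef1a1, Eef2 and Eef1b2 had the highest levels per length of transcript (CPM divided by the exon length in kilobases). Eef1a1, which delivers aminoacyl-tRNA, stood at 1898 to 2154 CPM per kb and Eef2, the translocase, at 905 to 1019. Eef1b2, a subunit of the exchange factor for eEF1A, came next at 279 to 387, above Eif3h of the eIF3 complex at 194 to 223. Eef1g at 124 to 192 and Eif5a, which helps stalled ribosomes form peptide bonds, at 139 to 171 overlapped each other. The exchange factor subunit Eef1d, at 4.04 to 6.33, lay far under the other eEF1 genes. The cap-binding Eif4e stood at 2.85 to 6.28 and Eif2s2, the beta subunit of eIF2, at 1.79 to 3.02. Together the 50 genes took 1.3% to 1.49% of all counts in untreated libraries, of which the Eef genes alone took 1.01% to 1.14%.

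LPS for 4 h raised 10 of the 47 tested members and lowered 4. Among all 6812 genes tested, 15.4% were called higher and 12.5% lower (edgeR's quasi-likelihood test, Benjamini-Hochberg adjusted p under 0.05), and the members' shares were 21.3% and 8.51%. The raised genes came from eIF4F and its relatives (Eif4e, Eif4e2, Eif4a2, Eif4g2 and the repressor Eif4ebp1) and from start-site selection and eIF2 (Eif1, Eif2s1). Others came from subunit joining and elongation support (Eif6, Eif5a), and the synthetase scaffold Eef1e1 was also raised. Lowered were Eif4b, a cofactor of the eIF4A helicase, Eif2a and Eif2d, which can place initiator tRNA by routes apart from eIF2, and the Argonaute gene Eif2c3. The median log2 difference of the 47 members was 0.07, beside -0.07 over all genes tested.

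Eif4ebp1, the 4E-binding protein that holds back eIF4E, moved furthest. It measured 41.8, 55.1 and 55.5 CPM in untreated libraries, and 275 and 230.2 CPM after LPS 4 h. The groups did not overlap, and the log2 difference was 2.31 ± 0.31 (SE; adjusted p = 6.13e-07, edgeR). Its partner Eif4e, the cap-binding subunit itself, measured 37.8, 31.7 and 17.2 CPM untreated and 70.4 and 90.4 CPM with LPS, a log2 difference of 1.48 ± 0.27 (adjusted p = 7.89e-05, edgeR). The inhibitor and the factor it inhibits were therefore both higher in each LPS library than in any untreated library. Eif4e2, a cap-binding homologue linked to repression, measured 33.7, 41.1 and 23.2 CPM untreated and 68.3 and 74.2 CPM with LPS (log2 difference 1.13 ± 0.26).

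The scaffolds and helicases of eIF4F did not move as a block. Eif4g2, a scaffold relative that lacks the eIF4E-binding site, measured 95.9, 129 and 127 CPM untreated and 265 and 285 CPM with LPS, a log2 difference of 1.23 ± 0.30 (adjusted p = 0.00204, edgeR). The main scaffold Eif4g1 measured 28.6, 45.7 and 28.2 CPM untreated and 67.2 and 45.2 CPM with LPS, which missed the threshold (log2 difference 0.73 ± 0.28, adjusted p = 0.0541, edgeR), and its groups overlapped. Of the helicases, Eif4a2 rose from 24.5, 24.6 and 18.2 CPM to 40.5 and 57.0 CPM (log2 difference 1.12 ± 0.34), whereas Eif4a1 measured 36.7, 55.1 and 57.5 CPM untreated and 69.3 and 55.9 CPM with LPS (log2 difference 0.33 ± 0.29, adjusted p = 0.439, edgeR). Reads of these 2 close copies may not be told apart in full, and Eif4a1 also has a pseudogene copy, so their split is uncertain. The helicase cofactor Eif4b fell from 232, 238 and 273 CPM to 118 and 117 CPM, a log2 difference of -1.07 ± 0.28 (adjusted p = 0.00359, edgeR), with no overlap.

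Among factors that act on the ribosome, Eif6, which keeps the large subunit from joining too early, measured 51.0, 48.1 and 55.5 CPM untreated and 243 and 201 CPM with LPS, a log2 difference of 2.10 ± 0.28 (adjusted p = 4.56e-07, edgeR). Eif5a measured 407, 386 and 331 CPM untreated and 802 and 826 CPM with LPS (log2 difference 1.12 ± 0.30, adjusted p = 0.00442, edgeR). Both genes were separated from the untreated group in each LPS library. Eif5, the GTPase activator of eIF2, measured 114, 102 and 65.6 CPM untreated and 57.6 and 79.6 CPM with LPS, and Eif5b, the subunit-joining GTPase, 10.2, 24.6 and 20.2 against 17.1 and 16.1 CPM. Neither was called, and their groups overlapped.

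In the ternary complex only the alpha subunit of eIF2 was called. Eif2s1, the subunit whose phosphorylation slows initiation, measured 33.7, 30.5 and 21.2 CPM untreated and 54.4 and 59.2 CPM with LPS (log2 difference 1.00 ± 0.28, adjusted p = 0.006, edgeR). Eif2s2 measured 20.4, 18.8 and 12.1 CPM untreated and 17.1 and 8.61 CPM with LPS. Of the eIF2B exchange factor, which reloads eIF2 with GTP, Eif2b1 measured 12.2, 5.87 and 4.04 CPM untreated and 9.6 and 9.68 CPM with LPS, and Eif2b2 measured 9.18, 12.9 and 12.1 against 9.6 and 10.8 CPM. Neither eIF2B subunit was called. Eif1, the start-codon fidelity factor, measured 70.4, 89.1 and 84.7 CPM untreated and 134 and 171 CPM with LPS (log2 difference 0.91 ± 0.33, adjusted p = 0.0388, edgeR), while Eif1a stood at 62.2, 45.7 and 31.3 against 38.4 and 59.2 CPM and was not called. Eef1e1 measured 3.06, 8.21 and 5.04 CPM untreated and 14.9 and 15.1 CPM with LPS (log2 difference 1.47 ± 0.51).

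The lowered genes apart from Eif4b rest on few counts. Eif2a measured 23.5, 29.3 and 43.4 CPM untreated and 9.6 and 16.1 CPM with LPS (log2 difference -1.31 ± 0.43, adjusted p = 0.0201, edgeR). Eif2c3 measured 5.1, 9.38 and 10.1 CPM untreated and 1.07 and 3.23 CPM with LPS. Eif2d held 23 counts over the untreated libraries and 3 over the LPS libraries, a ratio of 5.07 with a 95% counting interval of 1.53 to 26.4, which covers counting error only. No subunit of eIF3 was called in either direction among the 12 tested: Eif3a, its largest scaffold subunit, measured 159, 108 and 118 CPM untreated and 108 and 111 CPM with LPS, and Eif3c measured 65.3, 50.4 and 69.6 against 73.6 and 90.4 CPM. The eEF1 genes and Eef2 were not called either, with log2 differences from -0.72 (Eef1b2) to 0.10 (Eef1g).

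The split between higher and lower depended on scaling. With libraries scaled by their totals alone, without correction for the counts taken by a few LPS-induced genes, the median of all genes moved from -0.07 to -0.64 on the log2 scale and the share of higher among called genes fell from 55.2% to 25.1%. The members then split into 4 higher and 17 lower, and Eif1, Eif2s1, Eif4a2, Eif4e2, Eif5a and Eef1e1 were no longer called. Eif4ebp1, Eif6, Eif4e and Eif4g2 stayed called higher and Eif4b lower in each of the 7 alternative settings and with each of the 20 libraries left out. Leaving out either LPS 4 h library left 9 members called. Eef1e1 was called in only 2 of the 7 settings, Eif2c3 and Eif2d in 3, Eif1 in 4 and Eif2a in 5. DESeq2 did not call Eef1e1, Eif2c3, Eif2d or Eif1. The calls of Eif2a, Eif2c3, Eif2d, Eif1 and Eef1e1 were each lost without LPS 4 h library 1 or untreated library 4, and those of Eif2s1 and Eif4a2 without LPS 4 h library 2.

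**Figure D1:**
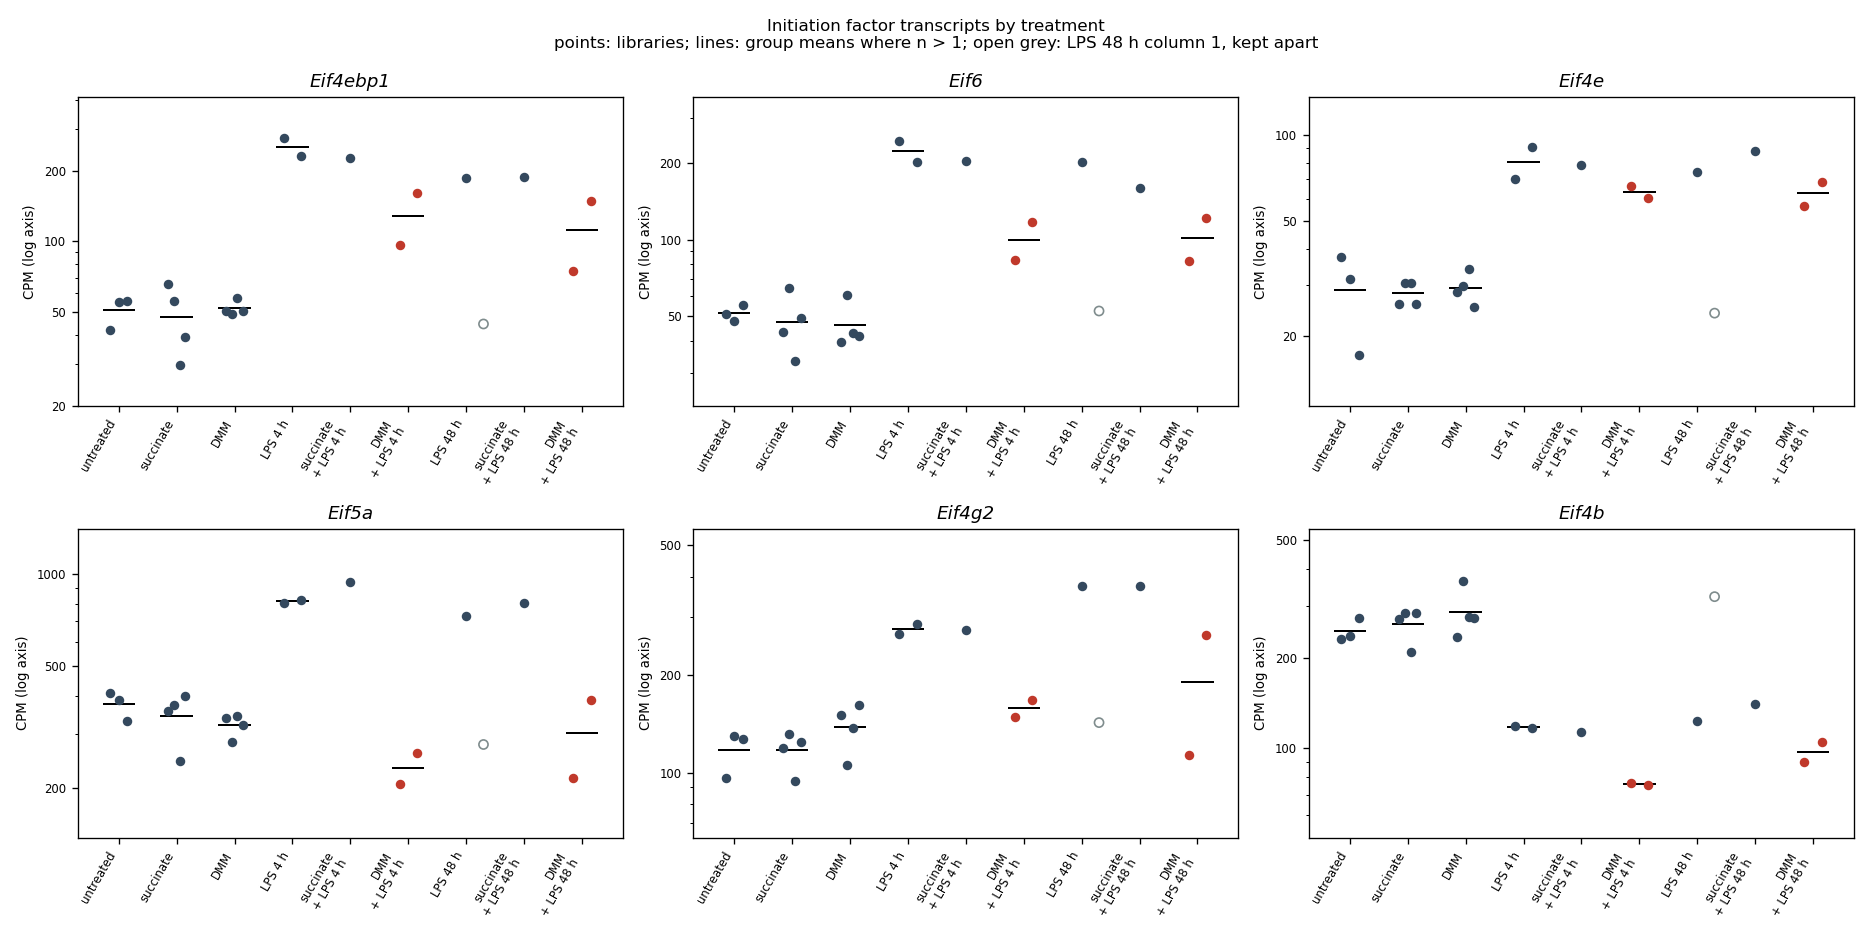
CPM on log axes of 6 initiation factor genes in 20 libraries by treatment, with group means as lines where a group has more than 1 library and the LPS 48 h column kept apart as an open circle. Eif4ebp1 sits at 230.2 and 275 CPM after LPS 4 h against 41.8 to 55.5 CPM untreated, Eif4b runs the other way, and Eif5a after DMM and LPS (red) lies at 205 and 259 CPM.

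At 48 h of LPS, the cap-binding Eif4e, its inhibitor Eif4ebp1 and Eif6 were again among the genes called higher. Called higher were 5 members (10.6%, against 12.5% of all genes) and called lower were 4 (8.51%, against 8.29% of all genes). This arm is 1 library, assumed in the fit to vary like the other groups, and the comparison shares its untreated libraries with the one at 4 h. Eif4ebp1 stood at 186 CPM (log2 difference 1.87 ± 0.37, adjusted p = 0.000275, edgeR), Eif6 at 202 CPM (1.97 ± 0.33 on the log2 scale), Eif4g2 at 374 CPM (1.67 ± 0.36), Eif4e at 74.3 CPM (1.37 ± 0.33) and Eif4a2 at 57.9 CPM (1.37 ± 0.40). The lower genes were Eif2a at 7.72 CPM (-2.04 ± 0.60), Eef1d, an exchange factor subunit, at 13.5 CPM against 26.2 to 41.1 CPM untreated (-1.24 ± 0.43), Eif3e at 52.1 CPM against 105 to 134 CPM (-1.16 ± 0.40) and Eif4b at 124 CPM (-1.003 ± 0.36). Reads of Eif3e may be shared with its pseudogene copies. With totals alone 14 members were called, 3 higher and 11 lower, as the share of higher among called genes fell from 60% to 34.3%, and the median of all genes moved from -0.09 to -0.58 on the log2 scale.

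The call of Eef1d was kept in 2 of the 7 settings and lost without any 1 of 4 libraries (untreated 1 and 3, succinate 3 and 4). DESeq2 and the fit with no filter called neither Eef1d nor Eif3e, and Eif3e was also lost without untreated library 1 or 4. Without untreated library 1 or 4 there were 6 called members, and Eif4b was called in only 7 of the 19 fits that left out a library. Placing the column kept apart into the LPS 48 h group left 1 member called, Eif6. In that column Eif4ebp1 measured 44.5 CPM, Eif6 52.5 CPM and Eif4b 322 CPM, levels within or near those of unstimulated libraries. Set directly against each other, LPS 48 h and LPS 4 h gave no called member (background 0.0147% higher and 0% lower of all genes). No member had an unadjusted p under 0.05 by edgeR, beside 144 of all 6812 genes higher and 172 lower at that level. DESeq2 called no member either, beside 1 of all genes higher and 3 lower.

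DMM before LPS lowered many translation factor transcripts at 4 h, with the largest decreases among members in Eef1a1 and Eef1b2. Against LPS alone at 4 h, 14 of 47 members were lower (29.8%, against 10.5% of all genes) and 1 was higher (2.13%, against 3.54%). The lower genes were 3 of the 4 eEF1 genes (Eef1a1, Eef1b2, Eef1g), Eef2, Eif5a, 5 of the 12 eIF3 subunits (Eif3e, Eif3f, Eif3h, Eif3i, Eif3k), the helicase Eif4a1, the cap-binding Eif4e2, Eif4ebp1 and Eif6. The median log2 difference of the members was -0.53, beside 0.04 over all genes tested.

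Eef1a1 measured 3520.3 and 3632 CPM with LPS alone and 173 and 244 CPM with DMM then LPS. Outside the DMM then LPS groups no library of the series was under 3520.3 CPM. The difference was -4.10 ± 0.45 on the log2 scale, or 17.2-fold lower (adjusted p = 4.85e-07, edgeR). Eef1b2 measured 526 and 532 CPM with LPS and 56.8 and 106 CPM with DMM then LPS (log2 difference -2.71 ± 0.39, adjusted p = 2.08e-05). Eef2 measured 2617 and 2361 CPM with LPS and 711 and 814 CPM with DMM then LPS (log2 difference -1.71 ± 0.37, adjusted p = 0.00199). Eef1g, a scaffold of the exchange factor, measured 470.3 and 425 against 126 and 152 CPM (log2 difference -1.69 ± 0.34). In none of these genes did the groups overlap, but the share of all genes without overlap was not counted.

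The order of the factors changed with these differences. Per length, Eef1a1 stood first at 1412 to 1457 CPM per kb with LPS alone and at 69.4 to 98.0 with DMM then LPS, where Eef2 led at 214 to 245 and Eef1a1 overlapped Eif5a at 86.3 to 109. The eEF1B subunit Eef1d measured 20.3 and 25.8 CPM with LPS and 12.9 and 15.8 CPM with DMM then LPS and was not called (log2 difference -0.70 ± 0.36, adjusted p = 0.192, edgeR). Eef2k, the kinase that inhibits eEF2, was too sparse to test. It measured 0 and 0 CPM with LPS, 1.12 and 0 CPM with DMM then LPS, and 1.02 to 11.9 CPM in unstimulated libraries.

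**Figure D2:**
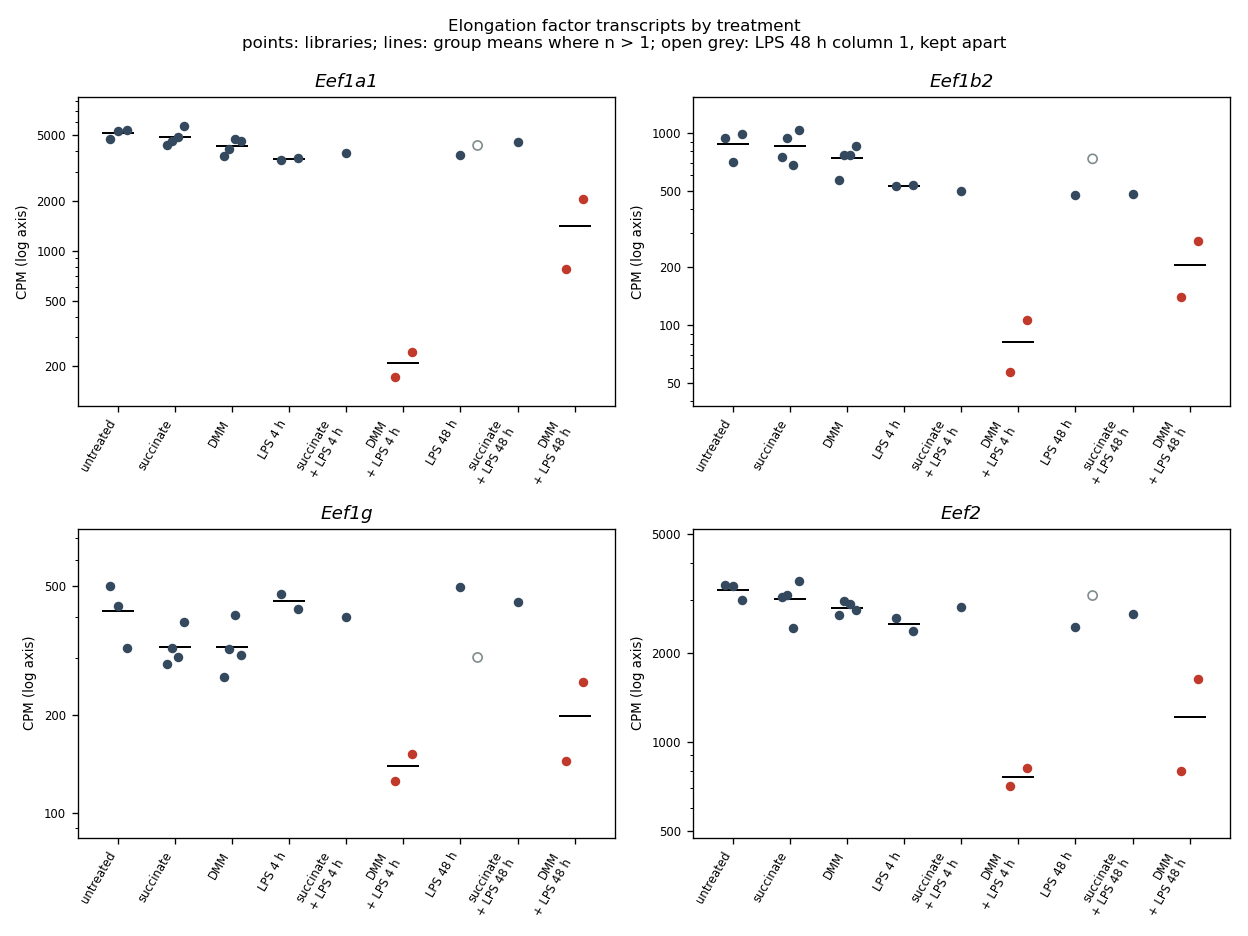
CPM on log axes of Eef1a1, Eef1b2, Eef1g and Eef2 in 20 libraries by treatment, with group means as lines and DMM then LPS in red. At 4 h the red points of Eef1a1 lie at 173 and 244 CPM, and at 48 h they lie at 778 and 2058 CPM with a gap between the libraries.

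Eif5a, raised by LPS alone, measured 205 and 259 CPM after DMM and LPS, under the 331 to 407 CPM of untreated cells, and was lower than with LPS alone by a log2 difference of -1.81 ± 0.34 (adjusted p = 0.000442, edgeR). Eif6 measured 83.2 and 117 CPM and Eif4ebp1 96.1 and 161 CPM after DMM and LPS, values between the untreated and the LPS libraries (log2 differences from LPS alone of -1.16 ± 0.30 and -0.99 ± 0.33). The cap-binding Eif4e at 66.3 and 60.4 CPM and Eif4a2 at 54.5 and 62.2 CPM were not called against LPS alone. Eif4e2 measured 36.0 and 36.2 CPM, within its untreated range (log2 difference -0.98 ± 0.28, adjusted p = 0.0162). These comparisons share the LPS libraries with the LPS contrast, so their values are given side by side without a measure of overlap.

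Within eIF3, the ring of subunits that binds the small ribosomal subunit, called and uncalled subunits were mixed. Eif3h measured 238 and 238 CPM with LPS and 82.6 and 78.0 CPM with DMM then LPS (log2 difference -1.56 ± 0.35, adjusted p = 0.00251). Eif3k fell from 70.4 and 64.5 CPM to 24.7 and 30.6 CPM and Eif3f from 96.0 and 120.5 CPM to 52.8 and 48.3 CPM (log2 differences -1.30 ± 0.30 and -1.09 ± 0.33). Eif3e was lower by -1.29 ± 0.34 and Eif3i by -1.07 ± 0.29 on the log2 scale. The core scaffold Eif3a measured 115 and 61.3 CPM after DMM and LPS, and Eif3c 90.5 and 64.1 CPM. Eif3a, Eif3b, Eif3c, Eif3d and Eif3g had log2 differences between -0.30 and 0.12 and were not called. Eif3l measured 78.9 and 82.8 CPM with LPS and 52.3 and 47.4 CPM with DMM then LPS, and Eif3m 18.1 and 19.4 against 12.9 and 13.0 CPM. Both measured lower in each DMM then LPS library but missed the threshold (log2 differences -0.69 ± 0.27 and -0.53 ± 0.39, adjusted p = 0.0792 and 0.393, edgeR).

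Among the remaining panel genes with DMM then LPS, Eif4a1 fell to 25.3 and 22.3 CPM (log2 difference -1.38 ± 0.33, adjusted p = 0.00406), Eif4g1 measured 32.6 and 46.4 CPM, and Eif4g2 measured 148 and 167 CPM with a log2 difference of -0.81 ± 0.33 that missed the threshold (adjusted p = 0.101). Eif1 at 93.9 and 114 CPM, Eif1a at 42.7 and 44.6 CPM, Eif2s1 at 36.5 and 38.1 CPM and Eif2s2 at 11.2 and 9.29 CPM were not called. Nor were Eif2b1 (12.9 and 11.1 CPM), Eif2b2 (21.4 and 13.0 CPM), Eif5 (92.7 and 79.9 CPM), Eif5b (31.5 and 20.4 CPM) or Eef1e1 (8.99 and 9.29 CPM). The higher gene was Eif2d (log2 difference 3.26). It held 46 counts over the DMM then LPS libraries and 3 over the LPS libraries, a ratio of 10.0 with a 95% counting interval of 3.22 to 50.4. Its levels of 14.1 and 19.5 CPM after DMM and LPS were above those of the untreated libraries (3.06 to 12.9 CPM). They were not above all unstimulated libraries: with DMM alone, library 2 held 20.9 CPM and the others 3.17 to 9.57 CPM. The column kept apart held 19.6 CPM.

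**Figure D3:**
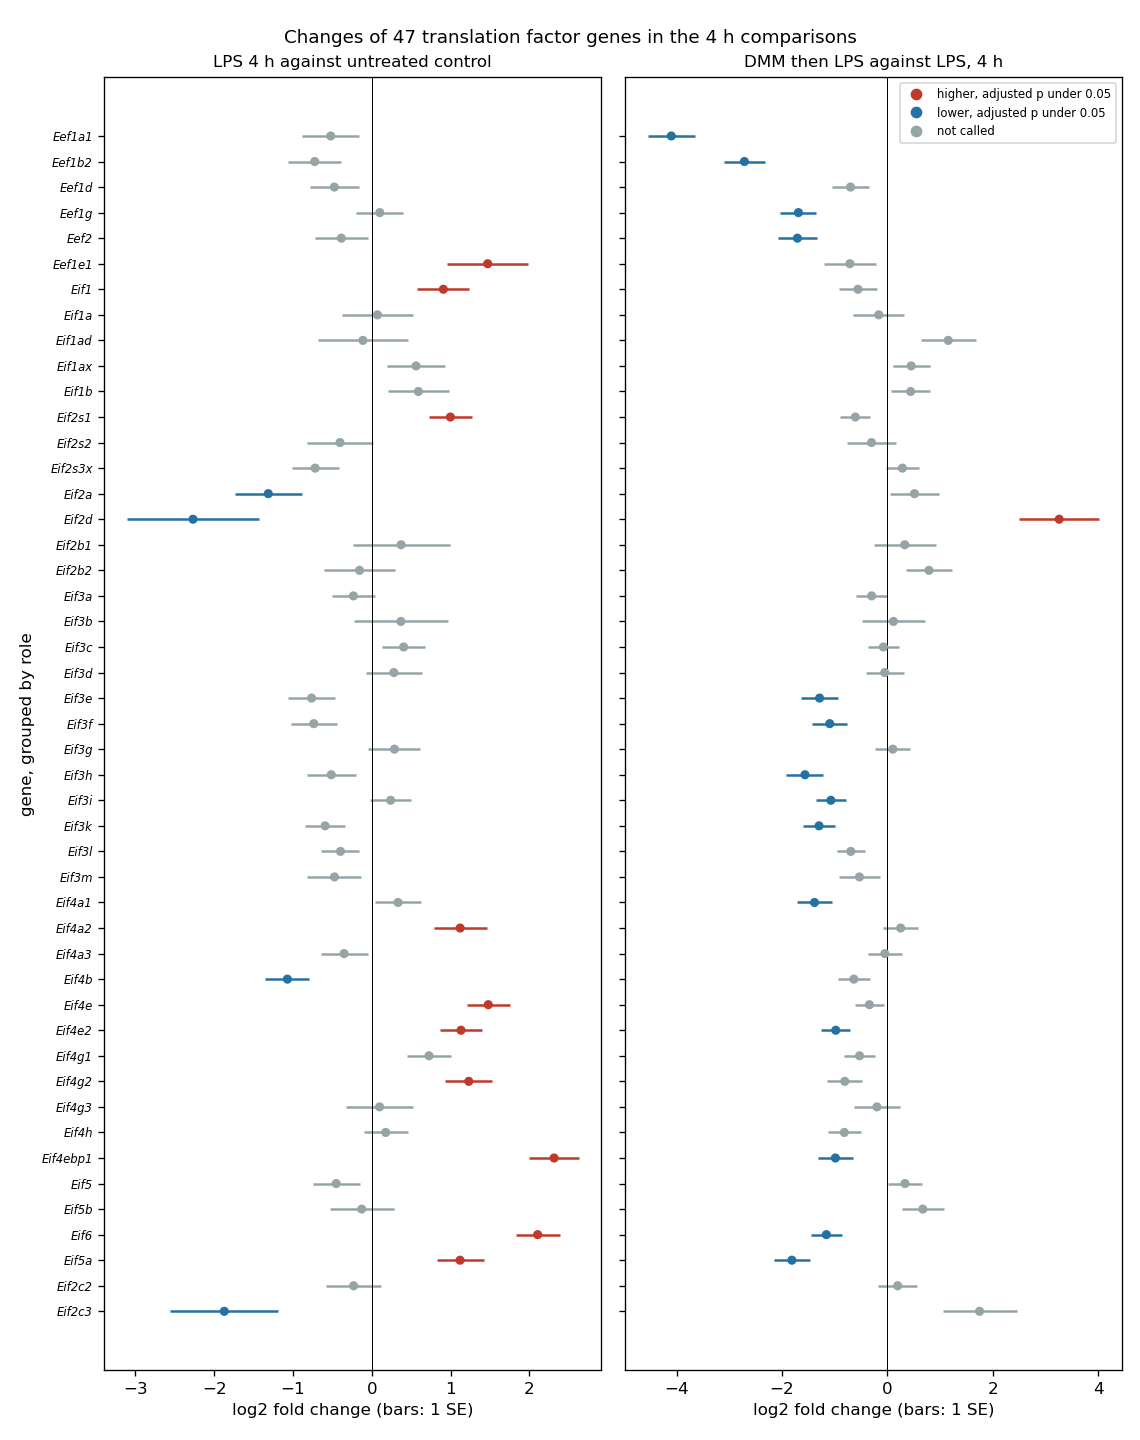
Log2 fold changes with bars of 1 SE for the 47 tested genes, grouped by role, for LPS 4 h against untreated (left) and DMM then LPS against LPS at 4 h (right). Red and blue points passed an adjusted p of 0.05; Eif4ebp1 (2.31) and Eif6 (2.10) stand out on the left, and Eef1a1 (-4.10) and Eef1b2 (-2.71) on the right.

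Other abundant transcripts and cell type markers moved in the same comparison. Of 80 tested ribosomal protein genes, 70 were lower with DMM then LPS at 4 h and none was higher, with a median log2 difference of -2.26. Their summed share was 1.57% and 1.67% of counts with LPS and 0.538% and 0.583% with DMM then LPS, and that of beta-actin (Actb) went from 1.56% and 1.57% to 0.368% and 0.385%. Ferritin heavy chain (Fth1) moved the other way, from 5.25% and 5.61% to 11.02% and 10.6%. Pseudogenes named -ps took 0.0543% and 0.0567% of counts with LPS and 0.0286% and 0.0314% with DMM then LPS, so their share was lower too. The fibroblast list of 5 genes summed to 6.45 and 14.9 CPM with LPS and to 32.5 and 40.5 CPM with DMM then LPS, and the higher sum was Dcn (7.46 and 5.38 CPM against 36.0 and 29.7 CPM). The collagen genes Col1a1, Col1a2 and Col3a1 and the proteoglycan gene Lum were at or under 3.2 CPM in each of these libraries. Macrophage markers were lower in part. Emr1 measured 17727 and 20605 CPM with LPS and 4602 and 7491 CPM with DMM then LPS, Itgam 3966 and 4164 against 849 and 1128 CPM, and Csf1r 7847 and 7749 against 2504 and 3271 CPM. Each was called lower (log2 differences -1.66 ± 0.55, -2.04 ± 0.43 and -1.43 ± 0.42). Lyz2, which makes up most of the macrophage sum, measured 88435 and 104920 against 74855 and 111260 CPM. Cd68 (278 and 329 against 260 and 357 CPM) and Mertk (21.3 and 22.6 against 19.7 and 16.7 CPM) differed little. Cd14 (4812 and 4980 against 2240 and 3704 CPM) and Fcgr1 (1063 and 1069 against 506 and 660 CPM) measured lower. Mrc1 was at or under 6.5 CPM in each. After DMM and LPS, Emr1 and Itgam were above their untreated levels (1064 to 2510 and 159 to 343 CPM). Csf1r was under its own (5404 to 5669 CPM). The neutrophil list of 8 genes summed to 42.7 and 68.8 CPM with LPS and to 199.5 and 320.3 CPM with DMM then LPS. In the latter all of it was S100a8, with the other 7 genes, among them Ly6g and Ltf, at 0. This was not particular to DMM: in the 1 library of succinate then LPS 4 h the list summed to 565.1 CPM, with S100a8 at 559.93 CPM. The part of these shifts in the members' differences was not tested.

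With totals alone, 7 members were called, 1 higher and 6 lower, while the share of higher among all called genes moved from 25.2% to 54.4% (12.4% by DESeq2) and the median of all genes from 0.04 to 0.50 on the log2 scale. Eef1a1, Eef1b2, Eef1g, Eif3h and Eif5a stayed called lower in all 7 settings and with each of the 20 libraries left out. Without DMM then LPS 4 h library 1 there were 6 called members, without LPS 4 h library 1 there were 8 and without LPS 4 h library 2 there were 10. Eef2 missed the threshold only when DMM then LPS 4 h library 1 was left out, and Eif2d only without LPS 4 h library 1. The call of Eif4e2 was lost in 4 of the 7 settings (totals alone, DESeq2, no filter and 21 libraries) and without any 1 of the 4 libraries compared. That of Eif4ebp1 was lost in 3 settings (totals alone, DESeq2 and 21 libraries) and without any 1 of 7 libraries. The calls of Eif3e, Eif3f, Eif3i, Eif3k, Eif4a1 and Eif6 were each lost with totals alone and without 1 or more of the 4 libraries compared.

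**Figure D4:**
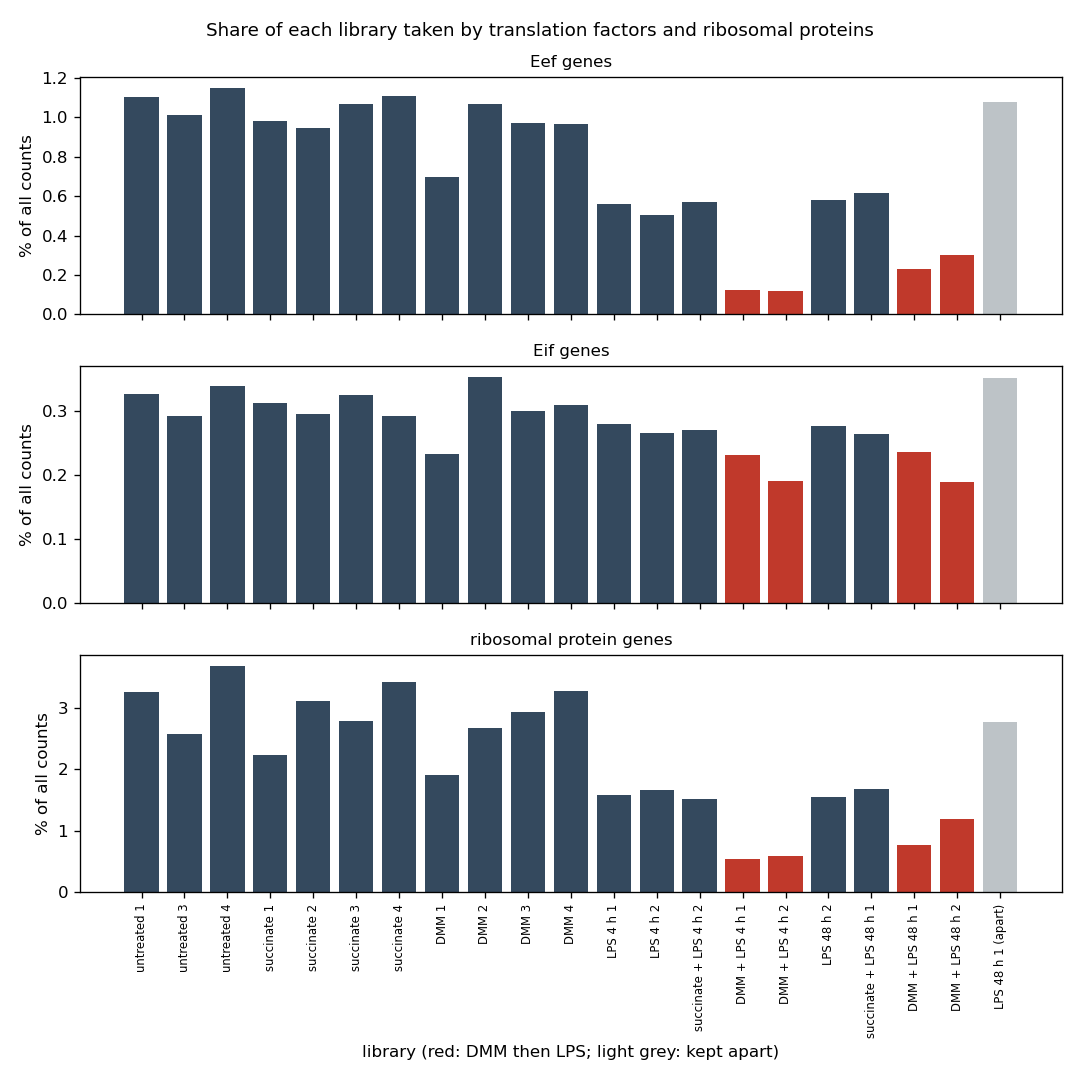
Share of all counts, in percent, taken by the Eef genes, the Eif genes and the ribosomal protein genes in each library, with DMM then LPS in red. The Eef share is 0.118% to 0.125% with DMM then LPS at 4 h, against 0.503% to 0.559% with LPS alone and 1.01% to 1.14% untreated.

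With DMM alone, without LPS, 1 of 47 members was called. It was the helicase Eif4a1 (2.13%, lower), against 0.235% of all genes lower and 0.323% higher, and it measured 36.7, 55.1 and 57.5 CPM untreated and 34.9, 14.9, 18.5 and 27.8 CPM with DMM (log2 difference -1.10 ± 0.26, adjusted p = 0.0432, edgeR). No DMM library exceeded the lowest untreated value. That call was lost with library totals alone, with 21 libraries and when any 1 of 12 libraries was left out: each untreated library, succinate 1 and 2, DMM 2, 3 and 4, and both libraries each of LPS 4 h and DMM then LPS 4 h. Eef1a1 measured 3741, 4084, 4745 and 4609.6 CPM with DMM alone and did not differ from untreated by a called amount (log2 difference -0.26, approximate 95% interval -0.84 to 0.33).

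Whether the DMM difference depended on LPS was tested as an interaction at 4 h, which found 5 members more lowered with LPS than without it (10.6%, against 4.49% of all genes) and 0 raised (against 0.94%). These were Eef1a1 (-3.84 ± 0.52 on the log2 scale, adjusted p = 4.92e-05), Eef1b2 (-2.47 ± 0.48, adjusted p = 0.00179), Eif5a (-1.59 ± 0.42, adjusted p = 0.0205), Eif3k (-1.21 ± 0.36, adjusted p = 0.0452) and Eef2 (-1.51 ± 0.46, adjusted p = 0.0494). Members raised at an unadjusted p under 0.05 by edgeR numbered 3 of 47, beside 474 of all 6812 genes. DESeq2 called none higher, while 1 member was called higher with totals alone, with 12 groups, with the replicate block, and without untreated library 1 or DMM library 2. Of the ribosomal protein genes, 54 of 80 were lower in the same test. The call of Eef1a1 was kept in all 7 settings and with each of the 20 libraries left out, and that of Eef1b2 was lost only without DMM then LPS 4 h library 1 (adjusted p = 0.0533, edgeR). Eef2 was called in 4 of the 7 settings and Eif3k in 3. Only 1 member was called without DMM then LPS 4 h library 1, 2 without DMM then LPS 4 h library 2 or either LPS 4 h library, 3 without untreated library 3, succinate 1 or 2 or DMM 3 or 4, and 8 without DMM then LPS 48 h library 2. With totals alone the share of higher among all called genes moved from 17.3% to 37.6% and the median of all genes from -0.03 to 0.40 on the log2 scale.

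At 48 h the DMM difference was smaller and uneven between libraries. No member was called by edgeR (background 0.147% higher and 0.661% lower of all genes). At an unadjusted p under 0.05 by edgeR, 11 of 47 members were lower and 1 higher, beside 556 and 376 of all 6812 genes. DESeq2 called 3 members lower, beside 95 of all genes lower and 14 higher. Eef1a1 measured 3804 CPM in the LPS library and 778 and 2058 CPM with DMM then LPS (log2 difference -1.42 ± 0.46, adjusted p = 0.152, edgeR). Eef2 measured 2430.3 CPM against 799 and 1625 CPM, and Eif5a 729.7 CPM against 215 and 386 CPM. Library 1 was the lower in each of these genes, and without library 2 there were 6 members called lower. With totals alone 1 member was called lower, and the share of higher among all called genes moved from 18.2% to 29.2%. The ribosomal protein share was 1.55% with LPS, and 0.766% and 1.18% with DMM then LPS, in the same order.

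Between 4 h and 48 h of LPS after DMM, Eef1a1 was the 1 member called higher (2.13%, against 0.837% of all genes higher and 0.338% lower). It rose by 2.77 ± 0.42 on the log2 scale, or 6.8-fold (adjusted p = 0.000274, edgeR), and both 48 h libraries were above both 4 h libraries. Eef1b2 measured 56.8 and 106 CPM at 4 h and 139 and 272 CPM at 48 h, without overlap, and missed the threshold (log2 difference 1.35 ± 0.38, adjusted p = 0.0776). Of the ribosomal protein genes 10 of 80 were higher and the median log2 difference was 1.25. Eef1d measured 12.9 and 15.8 CPM at 4 h and 10.5 and 4.7 CPM at 48 h and was not called. Without DMM then LPS 48 h library 1 there were 4 members called.

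Across the unstimulated libraries treated with DMM or succinate, the abundant factors overlapped or lay near the untreated group. With succinate alone Eef1a1 measured 4324, 4605, 4822 and 5669.8 CPM, and Eef2 measured 3081, 3132, 2426 and 3491 CPM. Eif5a measured 356, 373, 244 and 399 CPM with succinate and 339, 282, 342 and 322 CPM with DMM, both overlapping the untreated group. Eif4ebp1 measured 65.8, 55.6, 29.9 and 39.1 CPM with succinate and 50.7, 49.2, 57.6 and 50.4 CPM with DMM, far under its levels with LPS.

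Succinate gave no called member in any comparison. Alone, it was set against a background of 0% of genes higher and 0% lower, with 249 and 114 genes at an unadjusted p under 0.05 but no member among them by edgeR, and no member called by DESeq2. Before LPS at 4 h the background was 0.528% higher and 0.499% lower, and 1 member, Eif4e2, had an unadjusted p under 0.05 by edgeR. It measured 41.2 CPM against 68.3 and 74.2 CPM (log2 difference -0.79 ± 0.37). Of all 6812 genes, 269 were higher and 278 lower at that level. Before LPS at 48 h the background was 0.338% and 0.22%. No member was at that unadjusted level there, beside 212 of all genes higher and 242 lower. Each of these LPS arms holds 1 library.

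With succinate then LPS 4 h, Eef1a1 stood at 3889 CPM, inside a difference interval from LPS alone of -0.82 to 1.06 on the log2 scale. Eif5a stood at 941 CPM (interval -0.58 to 0.99) and Eif4ebp1 at 225 CPM (interval -0.96 to 0.63). At 48 h Eef1a1 stood at 4522 CPM, Eif5a at 802 CPM and Eif4ebp1 at 188 CPM. These values lie near those of LPS alone, and the intervals still allow differences of up to about 1 on the log2 scale.

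Never called in any comparison were 22 of the 47 tested members. They were the low-abundance Eif1ad, Eif1ax, Eif1b, Eif2c2, Eif2b1, Eif2b2, Eif2s2, Eif3b, Eif3d, Eif3g, Eif3m, Eif4g3 and Eif5b, all at or under 35.31 CPM in each of the 20 libraries, and the better covered Eif1a, Eif2s3x, Eif3a, Eif3c, Eif3l, Eif4a3, Eif4g1, Eif4h and Eif5. Among the latter Eif4h, a cofactor of the eIF4A helicase, ranged from 82.1 to 199.8 CPM and Eif3a from 61.3 to 159 CPM.

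**Figure D5:**
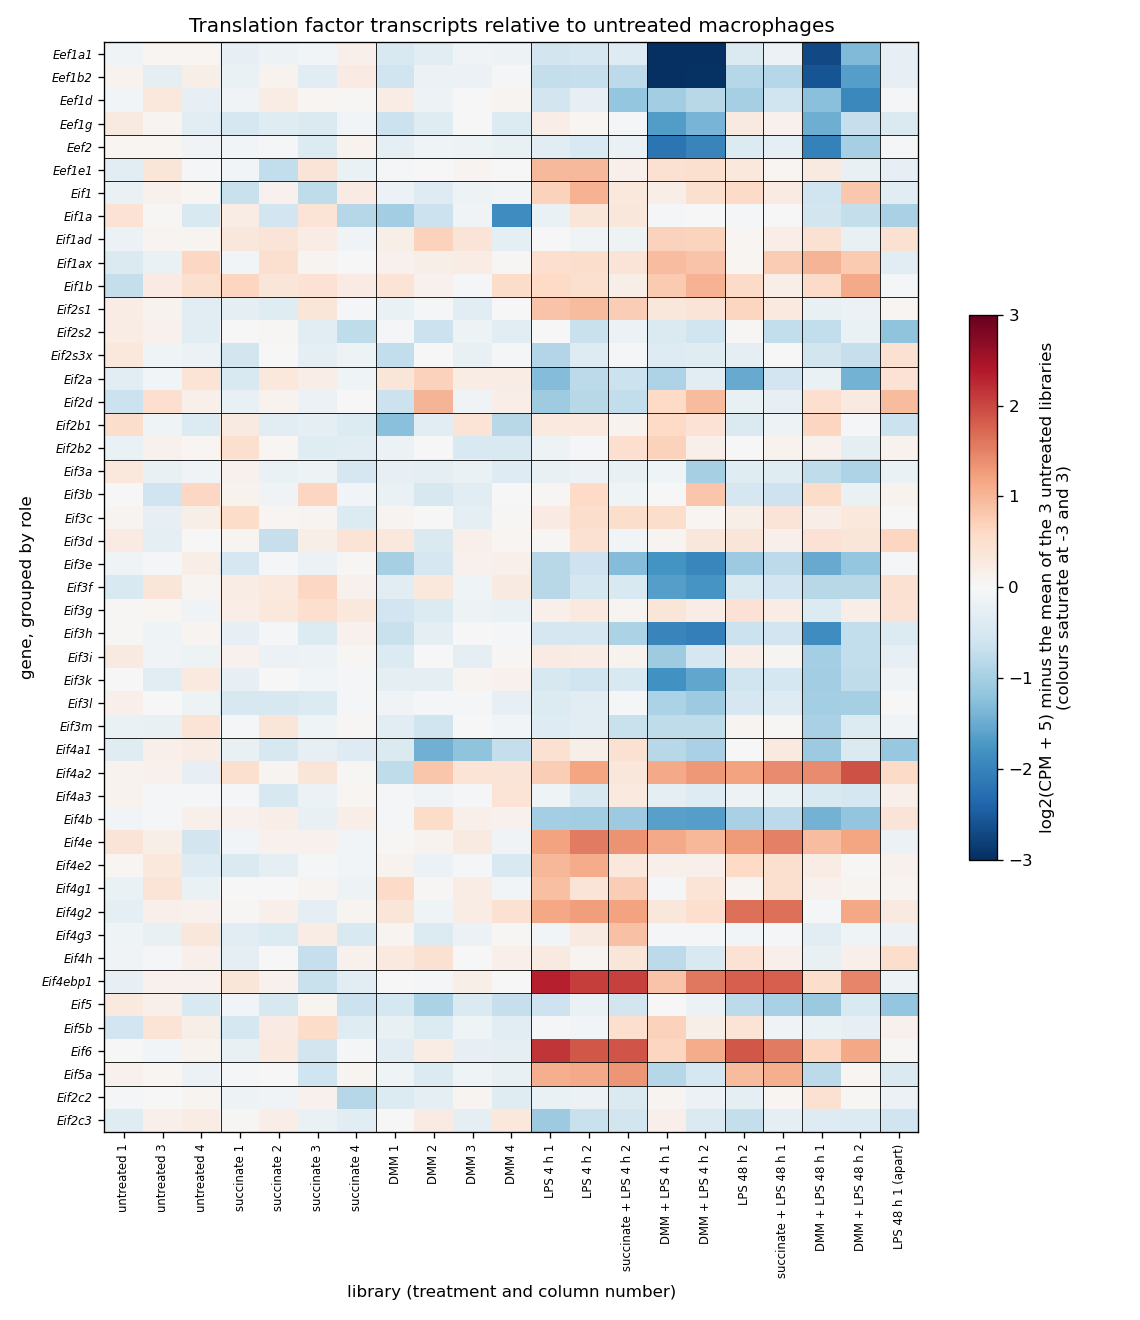
Heat map of log2(CPM + 5) minus the mean of the 3 untreated libraries for the 47 tested genes, grouped by role (rows), in 21 libraries (columns). The DMM then LPS columns at 4 h are darkest blue in Eef1a1 and Eef1b2, and Eif4ebp1 and Eif6 are red in the LPS columns but not in the LPS 48 h column kept apart.

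Genes that regulate or accompany these factors were followed by lists. Of 7 tested eIF2 kinases and phosphatase genes, 2 were higher with LPS 4 h: the phosphatase subunit Ppp1r15b, which reverses eIF2 phosphorylation (20.4, 22.3 and 28.2 CPM untreated, 58.7 and 64.5 CPM with LPS, log2 difference 1.37 ± 0.29, adjusted p = 0.000356), and the RNA-activated kinase Eif2ak2 (0.95 ± 0.30, adjusted p = 0.0145). Of 14 tested targets of the integrated stress response, the programme that follows eIF2 phosphorylation, 5 were higher and 1 lower, with a median log2 difference of 0.66. These list counts stand beside 15.4% of all genes called higher and 12.5% lower in that comparison, and beside a median of -0.07. Nupr1, a stress-induced chromatin protein, measured 4.04 to 7.04 CPM untreated and 141 and 139.8 CPM with LPS (4.60 ± 0.30), Slc7a11, the cystine transporter, by 3.66 ± 0.36, and Mthfd2, a mitochondrial folate enzyme, by 2.36 ± 0.37, while Pck2 fell (-2.35 ± 0.47). Slc3a2 also rose (1.82 ± 0.33). Trib3 held 11 counts with LPS and 2 untreated, a ratio of 8.32 with a 95% counting interval of 1.82 to 77.2.

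The next lists lay under those shares of all genes in both directions. In the list of mTOR signalling to translation, 1 of 18 tested genes was higher with LPS 4 h and 1 lower. Larp1, which binds TOP mRNAs, measured 3.06, 4.69 and 6.05 CPM untreated and 27.7 and 8.61 CPM with LPS, and Rragc fell (-2.17 ± 0.70 on the log2 scale). Of 21 tested aminoacyl tRNA synthetase genes, Qars fell (-0.92 ± 0.27) and none rose, and of 10 genes for poly(A) binding, release and recycling, the release factor Etf1 rose (0.90 ± 0.34). None of 8 tested genes for hypusine formation and elongation factor modification and none of 3 mitochondrial translation factors was called. The uncalled genes of smallest p had log2 differences of -0.98 (Lamtor3) and -1.11 (Mknk2) in the mTOR list, 0.65 (Eprs), 0.66 (Rars) and 1.03 (Cars) among synthetases, and 0.65 (Pabpc1), 0.87 (Mcts1) and -0.37 (Ddx3x) in the poly(A) list. In the hypusine and modification list they were -1.36 (Dph3), -0.34 (Sephs2), 0.59 (Dhps) and -0.49 (Eefsec), among eIF2 regulators -0.53 (Eif2ak1) and -0.33 (Gcn1l1), and among mitochondrial factors -0.62 (Gfm2), -0.16 (Gfm1) and -0.07 (Tufm). At 48 h of LPS, Ppp1r15b (1.11 ± 0.35), Nupr1 (4.02 ± 0.35), Slc7a11 (2.19 ± 0.48), Mthfd2 (2.50 ± 0.42) and Slc3a2 (1.62 ± 0.39) were higher, and Pck2 (-2.10 ± 0.58) and the eIF4E kinase gene Mknk2 (-2.73 ± 0.76) were lower.

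With DMM then LPS at 4 h, Pabpc1, the main poly(A)-binding protein and itself encoded by a TOP mRNA, measured 100.6 and 125 CPM against 734 and 781 CPM with LPS alone (-2.75 ± 0.45 on the log2 scale, adjusted p = 0.000113), the 1 gene called of 10 in its list (10.5% of all genes were lower in this comparison). In the hypusine and modification list 2 of 8 were lower: Sephs2, which makes selenophosphate (-1.25 ± 0.33), and Amd1 of polyamine synthesis, with 3 counts against 16, a ratio of 8.16 with a 95% counting interval of 2.34 to 43.7. Lamtor2, a Ragulator subunit, was lower in the mTOR list (-1.51 ± 0.33, 1 of 18) and Nupr1 in the stress response list (-1.12 ± 0.25, 1 of 14). The interaction called Pabpc1 (-2.38 ± 0.55) and Sephs2 (-1.31 ± 0.40). Between 4 h and 48 h after DMM, Sephs2 rose (1.33 ± 0.32) and Slc7a11 fell (-1.45 ± 0.32). With DMM then LPS at 4 h no eIF2 kinase or phosphatase gene, no synthetase and no mitochondrial factor was called. With succinate then LPS, Nupr1 was lower at 4 h (-1.64 ± 0.35) and Slc7a11 higher at 48 h (2.49 ± 0.46), each against LPS alone and each resting on 1 library.

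Some members share sequence with other genes, and no source used here says if the counting used strand. In the mouse annotation 43.3% of the exon bases of Eif3d overlap the antisense gene Gm17638, 16.9% of Eif5b overlap Rev1, 15.3% of Eif1ad overlap Banf1 and 12.7% of Eif1b overlap an antisense gene, so their reads cannot be told apart. None of these 4 genes was called in any comparison. Eef1a1, Eif5a, Eif4a1 and Eif3e have pseudogene copies, and Eif1a and Eif1ax are near-identical, so their counts are uncertain as far as reads of copies were split.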

How the data were processed

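RNA sequencing of 21 bulk libraries was analysed. Per the labels' protocols, RNA came from lysed cells, and cDNA of full length was made by a modified SmartSeq2 method. The counts were deposited by the authors as whole numbers per gene symbol. TopHat2, Bowtie, HTSeq and edgeR are named per the submitters' processing notes. Versions, genome build, annotation and strand setting are not given in those notes. No molecular identifiers are named, so counting intervals cover counting error only.

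Genes were kept at the CPM that 10 counts give in the median library, in 2 or more libraries, with a total of at least 15 counts (6812 genes). Library sizes were scaled by TMM, and CPM uses the kept genes' total times the TMM factor. One model of 9 groups and 20 libraries was fitted with edgeR 4.0.16 (R 4.3.3) by its robust quasi-likelihood test, with 11 residual degrees of freedom and a biological coefficient of variation of 0.23. Groups of 1 library are assumed to vary like the others. Adjusted p-values are Benjamini-Hochberg over the 6812 genes with a threshold of 0.05. SE was derived from the test, as the absolute log2 fold change divided by the square root of its F statistic. The intervals of log2 differences are approximate, since they take a normal factor for this SE and not the 11 residual degrees of freedom. Lengths and overlaps use the union of exons in the GENCODE mouse annotation.

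The members and gene lists were chosen with earlier results of these data known. The naming rule took a panel of core factors, the 5 highest and 5 lowest called members of each comparison, the 4 genes of smallest p with LPS 4 h in each pathway list and those called elsewhere, and Saa3, Il1b and Tnf as a check of the LPS labels. The rule asks for every library's value, and values are given so where a result turns on the gene, otherwise by group or range; genes named beyond it (Eif3d and the never-called members among them) were named after their values were seen. Alternatives were median-of-ratios factors, library totals alone, DESeq2 1.42.0, no filter, 21 libraries, 12 groups with inferred time sets, a block on inferred replicate numbers and omission of each library. The test code was run on simulated counts with changes seeded in the LPS 4 h group alone. All groups there were drawn from the same mean profile. The run therefore could not check the dependence on scaling, the comparisons with DMM or the interaction.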

Additional observations from a re-analysis of the deposited data

Results flagged for a closer look

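By the edgeR interaction test at 4 h, the DMM difference depended on LPS in 5 of the 47 tested genes. All were lower (10.6%, against 4.49% of all genes lower and 0.94% higher). They were Eef1a1 (-3.84 on the log2 scale), Eef1b2 (-2.47), Eif5a (-1.59), Eef2 (-1.51) and Eif3k (-1.21). Each value is the DMM difference with LPS minus that without it. The call of Eef2 was kept in only 4 of the 7 alternative settings and that of Eif3k in 3. In 3 of 100 checks of groups of 4 libraries, 1 library stood far from the rest of its group, where chance gives about 5%. Eif4g3 measured 14.6 CPM in succinate library 3, against 7.05 to 8.23 CPM in the rest of that group. Eif4a3 measured 42.6 CPM in DMM library 4, against 28.3 to 30.1 CPM. Eif6 measured 60.4 CPM in DMM library 2, against 39.6 to 42.9 CPM.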

How the results depend on the processing

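Counts are of members called, out of 47. With library totals alone they were 14 at LPS 48 h (9 as reported), 0 for DMM alone (1), 7 for DMM then LPS at 4 h (15), 1 at 48 h (0) and 2 between 48 h and 4 h after DMM and LPS (1). DESeq2 gave 3 for DMM then LPS at 48 h and 2 between the times after DMM, no filter gave 2 there, and 12 groups gave 1 and 2 in the same comparisons. With 21 libraries the counts were 1 at LPS 48 h, 0 for DMM alone and 2 for the interaction (5), and median-of-ratios factors gave 3 for the interaction. Leaving out each library gave 9 to 18 at LPS 4 h (14), 6 to 10 at LPS 48 h, 0 to 1 for DMM alone, 6 to 17 for DMM then LPS at 4 h, 0 to 6 at 48 h, 1 to 4 between the times and 1 to 8 for the interaction. The cause of these changes was not tested. LPS 48 h library 2 is the whole of its arm, so comparisons with it have no value without it. No gene's called direction reversed in any setting.

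The replicate block, with numbers inferred from the columns, gave 9 for the interaction, and in no other comparison did it move the count by over 1.5 times. The difference between the 2 inferred replicates of a group was correlated across genes between groups. It gave -0.056 to 0.164 over 10 pairs of groups in the 4 h set and 0 to 0.297 over 3 pairs in the 48 h set. With so few pairs and inferred numbers, this cannot decide whether the samples are paired. Depth limits genes of a few CPM most, and groups of 1 or 2 libraries limit all comparisons with LPS.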
